A study of Mus musculus with 24 samples.

Results

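Corticothalamic projection neurons of the mouse cortex were compared at embryonic day 18 (E18) with embryonic day 16 (E16). The cells were sorted by FACS, a fluorescence-based cell sort, from CD1 mice, an outbred laboratory strain, and no genotype or treatment separates the groups. The labels give 24 libraries in all, 2 for each of 12 combinations of 3 projection neuron subtypes (corticothalamic, callosal and subcerebral) and 4 stages (E15, E16, E18 and postnatal day 1, P1). The 4 libraries of the comparison are the E18 and the E16 corticothalamic ones, and the same stages of the other subtypes, 4 libraries each, are used to see which differences were shared. The deposited table holds 1 value per combination, the authors' pooled value for its 2 libraries, so no value has an SD or n and no test of E18 against E16 within a subtype is possible. Whether the libraries came from separate animals, and which antibodies or markers served for sorting, is not given in the sources used here.

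All genes with a value of 1 or more in either corticothalamic column were compared, 13142 of the 32310 entries, leaving 19168 out. The lowest value that brought a gene in was 1.00024, and the highest that left one out was 0.998616, with 195 compared genes under 1.1 and 215 entries left out from 0.9 upward. The unit was taken to be FPKM, a count of fragments scaled to transcript length and to the mapped fragments of a library. A step is the difference in log2(FPKM + 1) at E18 minus E16, so a step of 1 is 2-fold on the scale of FPKM + 1, which understates changes of low genes. "Higher" and "lower" by at least 2-fold below mean a step of at least 1 in size.

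Corticothalamic neurons lie mainly in layer 6 of the cortex and send axons to the thalamus, where they modulate the flow of sensory information. In the last days before birth their axons grow through the internal capsule and enter thalamic nuclei. The same period brings dendrite growth, the first synapses and the gradual replacement of early neuronal genes by genes for ion channels, transmitter release and calcium signalling.

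Markers of the subtype were checked first. Tle4, which encodes a Groucho-family corepressor, was 192 FPKM at E18 and 194 FPKM at E16 in corticothalamic neurons. In callosal neurons it was 2.31 and 3.16 FPKM at these stages, and in subcerebral neurons 11.6 and 23.0 FPKM. Tle4 was therefore higher in the corticothalamic columns than in the others at both stages, and nearly level between them. Tbr1, a T-box transcription factor of deep-layer neurons, was 195 FPKM at E18 and 217 FPKM at E16 in corticothalamic neurons, against 72.9 and 65.8 FPKM in callosal and 29.2 and 47.9 FPKM in subcerebral neurons. Should these genes have served as sort markers, their levels follow from the sort.

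The 6 columns of E18 and E16 had similar totals, with summed FPKM between 355965 and 402497. The corticothalamic columns summed to 363225 at E18 and 355965 at E16, with 12838 and 12735 genes at 1 FPKM or more. The number of reads behind these values is unknown. Few markers of some cells the sort could also hold reached the threshold: 2 of 15 microglial, 4 of 20 vascular and 5 of 15 oligodendrocyte-lineage genes. So did 2 of 12 red blood cell and 2 of 11 Cajal-Retzius genes. Larger parts of other lists reached it: astrocytes and radial glia (13 of 22), proliferating cells and progenitors (27 of 38) and interneurons (11 of 25). The summed FPKM of microglial genes was 22.0 at E18 and 19.2 at E16, and of vascular genes 23.3 and 20.1. Genes of astrocytes and radial glia summed to 198 FPKM at E18 and 239 FPKM at E16. Genes of proliferating cells and progenitors summed to 152 FPKM at E18 and 190 FPKM at E16, and 24 of the 27 compared (88.9%, against 46.8% of all genes) had steps below 0. Their defining genes were low and above 0 at both stages: Mki67 was 0.221 FPKM at E18 and 0.957 FPKM at E16, and Sox2 0.908 and 1.85 FPKM. Gfap of astrocytes was 0.0238 and 0.0376 FPKM, Cx3cr1 of microglia 0.0785 and 0.0608 FPKM and Pecam1 of vascular cells 0.364 and 0.467 FPKM. The part of other cells in the steps was not tested. Another shift ran through all 3 subtypes: the 4 Y-linked genes compared (Ddx3y, Eif2s3y, Kdm5d and Uty) were lower at E18 than at E16, with steps from -0.99 to -0.74 in corticothalamic neurons, -1.03 to -0.71 in callosal and -1.26 to -0.62 in subcerebral neurons. Xist, the RNA of the inactive X chromosome, had steps of 0.34, 0.53 and 0.42 in the same order of subtypes. A difference between the embryos collected at the stages cannot be told apart from a difference of stage.

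Most genes differed little between E18 and E16. The median step was 0.02, the quartiles were -0.14 and 0.18, and 11897 genes (90.5%) differed by less than 0.5. In all, 171 genes (1.3%) were at least 2-fold higher at E18 and 66 (0.502%) at least 2-fold lower. Of the higher genes 109 had a larger value of at least 5 FPKM and 39 of at least 20 FPKM, and of the lower genes 45 and 19. Loci known only by an assembly identifier made up 12 of the higher and 3 of the lower genes, and 4 and 7 genes were listed at 0 on 1 side.

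**Figure D1:**
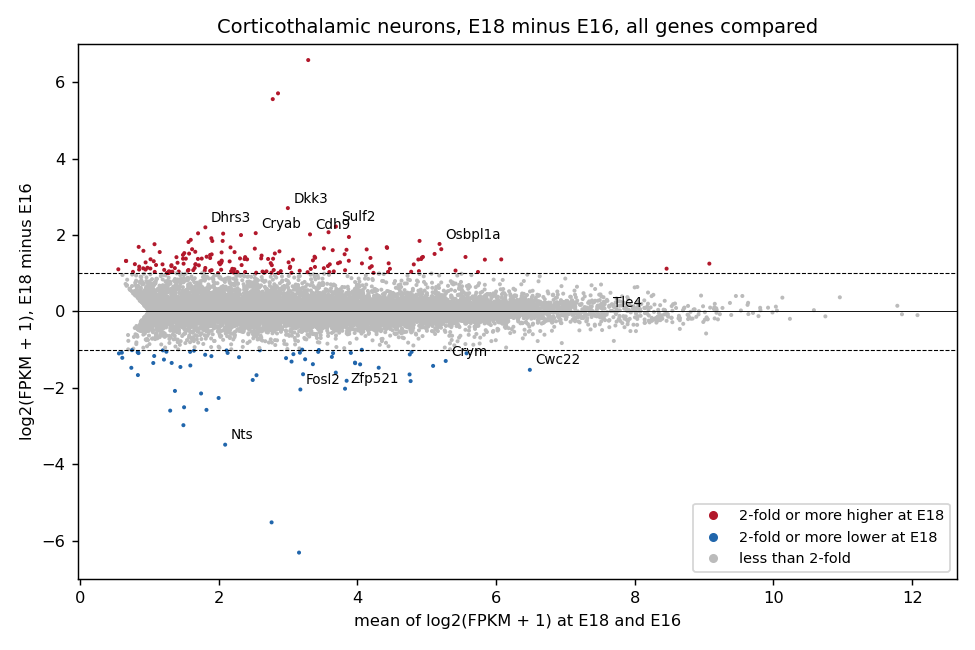
Step of each of the 13142 genes compared (vertical axis, log2(FPKM + 1), E18 minus E16) against its mean log2(FPKM + 1) over both stages (horizontal axis) in corticothalamic neurons, 1 point per gene. Red marks the 171 genes at least 2-fold higher at E18, blue the 66 at least 2-fold lower and grey the rest; the points beyond 5 in size are short noncoding RNA entries and a cDNA-named entry listed at 0 on 1 side.

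Among genes with a symbol and at least 5 FPKM, the largest steps upward were those of Dkk3, Sulf2, Dhrs3, Cryab, Ccl19, Kcnk9, Cdh9, Tmem163 and Vsnl1, after 3 short noncoding RNAs. Dkk3, which encodes a secreted protein of the Dickkopf family, was 0.447, 2.13, 19.4 and 67.8 FPKM from E15 to P1 in corticothalamic neurons, a step of 2.70 between E16 and E18. Callosal neurons had 19.9 FPKM of Dkk3 at E18 and 21.4 FPKM at E16, so the corticothalamic value reached the callosal level at E18. A separate entry, Dkk-3, was 6.10 FPKM at E18 and 0.981 FPKM at E16, and reads may be split between the entries.

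Sulf2 and Vsnl1 were higher at E18 in every subtype. Sulf2, an extracellular sulfatase that edits heparan sulfate, was 26.9 FPKM at E18 and 4.97 FPKM at E16, a step of 2.22, beside steps of 2.03 in callosal and 2.53 in subcerebral neurons. Vsnl1, which encodes the neuronal calcium sensor visinin-like 1, was 27.9 and 6.48 FPKM, a step of 1.95 beside 2.08 and 1.81. The chemokine gene Ccl19, which has near-identical copies that can share reads, was 5.60 FPKM at E18 and 0.601 FPKM at E16, with a step of 2.04 beside 2.09 and 1.76.

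Cdh9 and Cryab had their larger steps in the corticothalamic columns. Cdh9, a classical cadherin that mediates adhesion between cells, was 1.80, 3.95, 19.0 and 26.3 FPKM from E15 to P1 in corticothalamic neurons, whereas callosal neurons did not exceed 1.54 FPKM and subcerebral neurons 0.448 FPKM at any stage. In callosal neurons Cdh9 was 0.746 FPKM at E18 and 0.108 FPKM at E16, a step of 0.66. Such values lie under the pseudocount of 1, so the steps do not show a relative rise particular to corticothalamic neurons. Cryab, a small heat shock protein, was 2.22, 1.84, 10.8 and 49.1 FPKM. Its step of 2.05 stood beside 0.72 in callosal and 0.20 in subcerebral neurons. The enzyme gene Echdc2 belongs with them by its values, 55.4 FPKM at E18 and 14.7 FPKM at E16, a step of 1.84 beside 0.77 and 0.19.

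Kcnk9, Dhrs3 and Tmem163 were at least 2-fold higher in corticothalamic neurons and in 1 of the other subtypes. Kcnk9, the two-pore-domain potassium channel TASK-3, was 7.46 FPKM at E18 and 1.06 FPKM at E16, a step of 2.04 beside 1.40 in callosal and -0.02 in subcerebral neurons. Dhrs3, a retinaldehyde reductase, was 6.50 and 0.632 FPKM, a step of 2.20 beside 1.78 and 0.35. Tmem163, a zinc transporter of synaptic vesicles, was 8.98 and 1.499 FPKM, and its step of 2.00 stood beside 0.18 in callosal and 1.67 in subcerebral neurons. Among genes also higher elsewhere, Osbpl1a, an oxysterol-binding protein relative that acts in endosome positioning, was 66.0 FPKM at E18 and 18.7 FPKM at E16. Ncald, the calcium sensor neurocalcin delta, was 37.4 and 10.97 FPKM, and Negr1, an adhesion molecule of the IgLON family, 19.3 and 5.46 FPKM.

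**Figure D2:**
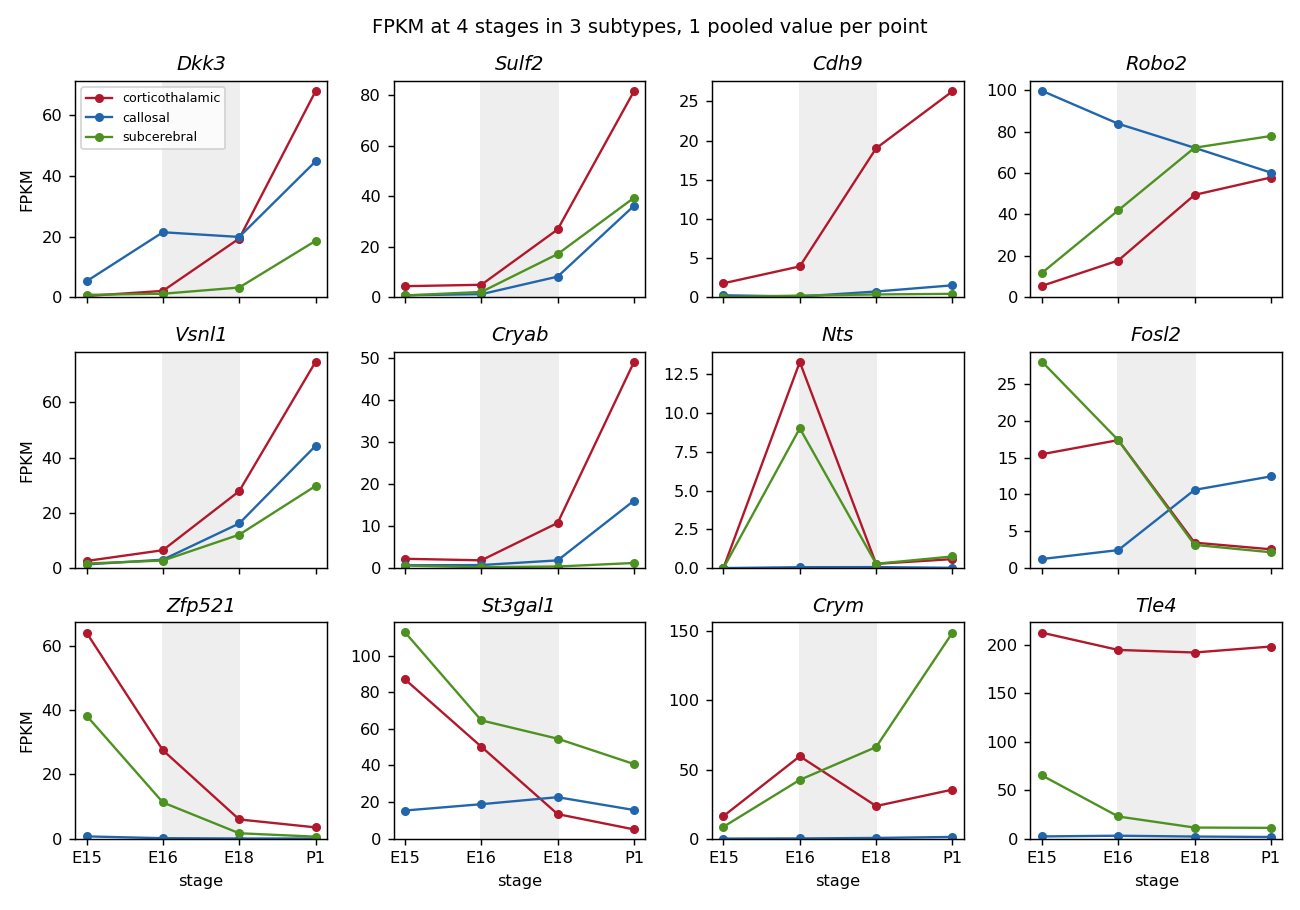
FPKM (vertical axis, linear, from 0) of 12 genes at E15, E16, E18 and P1 (horizontal axis) in corticothalamic (red), callosal (blue) and subcerebral neurons (green), 1 pooled value per point, with the E16 to E18 interval shaded. Cdh9 is above 15 FPKM at E18 in corticothalamic neurons alone, Sulf2 and Vsnl1 are higher at E18 than at E16 in all 3 subtypes, Nts is above 5 FPKM only at E16 in 2 of them, and Tle4 stays near 200 FPKM in corticothalamic neurons.

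Robo2 had the largest step among netrin and slit pathway genes. This receptor for the Slit repellents was 5.54, 17.8, 49.5 and 57.9 FPKM from E15 to P1 in corticothalamic neurons, a step of 1.43. In callosal neurons it was 72.2 FPKM at E18 and 83.8 FPKM at E16, and in subcerebral neurons 72.2 and 42.0 FPKM. The 3 subtypes thus lay closer together at E18 than at E16. Of the 16 netrin and slit pathway genes compared, Robo2 was the 1 at least 2-fold apart (6.25% higher, against 1.3% of all genes). Of the 16, 10 (62.5%, against 46.8% of all genes) had steps below 0, among them Slit1, with 42.0 FPKM at E18 and 68.2 FPKM at E16.

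Robo2 was also 1 of 3 genes among those higher at E18 whose promoter held the core letters of the RE1 element, the site bound by the neuronal gene repressor REST. Promoters were read from the RefSeq table of GRCm38.p6, from 250 bases before to 50 bases after each start, for 91 of the 171 higher genes, 30 of the 66 lower genes and 8172 of all genes compared. The letters searched, on either strand, were GCAC and CGGACAG with any 2 bases between them. They occurred in 3 of 91 promoters of higher genes (3.30%), in 0 of 30 of lower genes, in 9 of 8172 of all genes compared (0.11%) and in 14 of the 27025 promoters in the table (0.05%). Each match is shown with the 30 bases on either side, in capitals and in the direction of transcription, for the 3 higher genes and, since a match alone does not go with a step, for Gria2, an AMPA receptor subunit with a step of -0.26.
Robo2: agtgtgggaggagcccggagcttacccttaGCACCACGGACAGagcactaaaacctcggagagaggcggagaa
Actn2: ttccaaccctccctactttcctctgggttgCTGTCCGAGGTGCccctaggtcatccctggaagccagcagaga
Hrh3: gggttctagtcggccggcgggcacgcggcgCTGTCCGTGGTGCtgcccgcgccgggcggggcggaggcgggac
Gria2: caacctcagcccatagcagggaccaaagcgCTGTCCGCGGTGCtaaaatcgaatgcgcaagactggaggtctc

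The windows lie on the minus strand at chr16:75447326-75447398 (Robo2), chr13:12340877-12340949 (Actn2), chr2:180104548-180104620 (Hrh3) and chr3:80802963-80803035 (Gria2). The match began 75 bases before the start of Robo2, 187 before Actn2, 183 before Hrh3 and 170 before Gria2. Robo2 carries GCAC first and the other sequences carry the reverse complement. Actn2, an alpha-actinin that links actin filaments, was 3.67 FPKM at E18 and 0.675 FPKM at E16, a step of 1.48. Hrh3, the presynaptic histamine H3 receptor, was 2.54 and 0.726 FPKM, a step of 1.03. Actn2 and Hrh3 are thus low genes, and both fall out with the filter at 5 FPKM, which keeps Robo2. The share of matches among higher genes therefore rests largely on low values, and it is given for the main setting alone. Gria2 was 128 FPKM at E18 and 153 FPKM at E16. The other promoters with a match belonged to Osbp2, Ogdhl, Scamp5, Taok3 and Ubr2, none with a step of 1 in size. A match is a description of letters, and binding of a factor was not measured.

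In all, 11 motifs were searched, and the shares of all of them, RE1 included, are descriptions with no test. The cyclic AMP response element TGACGTCA was in 2.20% of promoters of higher genes, 3.33% of lower genes and 3.84% of all genes compared. The AP-1 form TGANTCA was in 9.89%, 6.67% and 5.31%, and the E-box CACGTG in 17.6%, 13.3% and 12.2%. For the shorter TGACGT the shares were 13.2%, 6.67% and 13.8%, for CAGGTG 24.2%, 16.7% and 20.6%, and for the EGR form GCGTGCGTG 0, 3.33% and 1.20%. Matches to TGACGTCA are among those to TGACGT. The serum response element, the MEF2 form, the heat shock element and the long E-box were in none of the promoters of higher or lower genes.

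Several of the largest steps downward were in genes for transcription factors and signalling proteins. Zfp521, a zinc finger transcription factor, was 64.0, 27.5, 6.01 and 3.54 FPKM from E15 to P1, a step of -2.02 between E16 and E18, beside -2.18 in subcerebral neurons. Callosal neurons held at most 0.741 FPKM of it. Fosl2, an AP-1 transcription factor of the Fos family, was 3.45 FPKM at E18 and 17.4 FPKM at E16 in corticothalamic neurons and 3.15 and 17.4 FPKM in subcerebral neurons. In callosal neurons it ran the other way, with 10.6 FPKM at E18 and 2.44 FPKM at E16. Rasgrf1, an exchange factor that activates Ras in response to calcium, was 0.591 FPKM at E18 and 6.06 FPKM at E16, a step of -2.15.

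Nts, the neuropeptide neurotensin, had the largest downward step of a protein-coding symbol, -3.49. It was 0.0108, 13.3, 0.272 and 0.577 FPKM from E15 to P1, so the value at E16 stood alone. Subcerebral neurons had the same form, with 9.01 FPKM at E16 and at most 0.749 FPKM at any other stage, and callosal neurons did not exceed 0.0635 FPKM. Ntsr1, a receptor for this peptide and a common marker of layer 6 corticothalamic neurons, was 97.7 FPKM at E18 and 94.3 FPKM at E16.

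St3gal1, a sialyltransferase that caps O-linked glycans, was 87.0, 50.2, 13.5 and 5.12 FPKM from E15 to P1 in corticothalamic neurons, a step of -1.82. Callosal neurons had 22.7 FPKM at E18 and 18.9 FPKM at E16, and subcerebral neurons 54.6 and 64.6 FPKM. The corticothalamic value was thus below both of the others at E18 and between them at E16. Kcnip1, a potassium channel-interacting calcium sensor, was 2.01 FPKM at E18 and 9.46 FPKM at E16, with a step of -1.80 beside -0.11 and 0.13. Cntnap2, a neurexin-family adhesion protein that clusters potassium channels on axons, was 4.25 and 15.4 FPKM, a step of -1.65 beside 0.40 and -0.01. Iqcj-schip1, a locus that encodes an ankyrin-binding protein of the axon initial segment, was 0.820 and 7.76 FPKM, a step of -2.27 beside 0.03 and -0.50.

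Crym, whose product mu-crystallin binds thyroid hormone and which marks subcerebral neurons after birth, separated the deep-layer subtypes over this interval. It was 16.4, 59.6, 23.7 and 35.5 FPKM from E15 to P1 in corticothalamic neurons and 8.66, 42.6, 66.3 and 149 FPKM in subcerebral neurons. The corticothalamic value was the lower of these at E18 and the higher at E16. The step was -1.30 in corticothalamic, 0.38 in callosal and 0.63 in subcerebral neurons.

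Of the corticothalamic neuron genes, 29 of 32 were compared, and their median step was 0.03, beside 0.02 over all genes (-0.015 for both after quantile normalization). At E18, 2 (6.90%, against 1.3% of all genes) were at least 2-fold higher and 1 (3.45%, against 0.502%) lower, with 15 above 0 and 14 below. The genes at least 2-fold higher were Cdh18, a cadherin, with 7.04 FPKM at E18 and 1.52 FPKM at E16, and Wscd1, with 75.3 and 36.3 FPKM. Crym was the lower gene. Ppp1r1b, the phosphatase regulator DARPP-32, was 232 FPKM at E18 and 142 FPKM at E16, a step of 0.70 beside -0.37 in callosal and -0.25 in subcerebral neurons. Foxp2, a forkhead transcription factor, was 39.3 and 30.1 FPKM, and Sox5, which restrains subcerebral identity, 80.7 and 103 FPKM. The median step of the same list was 0.10 in callosal and -0.51 in subcerebral neurons.

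Genes that mark the other subtypes were also counted. Of 20 subcerebral neuron genes compared, 0 were at least 2-fold higher and 2 (10%, against 0.502% of all genes) lower, Crym and the natriuretic peptide receptor gene Npr3 (10.8 FPKM at E18 and 22.7 FPKM at E16). Bcl11b, which encodes CTIP2, a regulator of subcerebral axon growth, was 36.7 and 68.0 FPKM, a step of -0.87 beside -0.18 in subcerebral neurons. Crym and Bcl11b are also on the list of corticothalamic neuron genes, so these lists are not independent. Of 26 callosal neuron genes 2 (7.69%, against 1.3% of all genes) were at least 2-fold higher, Dkk3 and the growth factor gene Ptn (24.9 and 9.83 FPKM).

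Subplate genes had a median step of 0.61 over 11 genes, which was 0.40 with a pseudocount of 5 and 0.41 with no filter or with the filter at 5 FPKM. The median of the same list was 0.34 in callosal and 0.19 in subcerebral neurons. The subplate is the transient layer below layer 6. Tmem163, Ctgf and Trh (27.3%, against 1.3% of all genes) were at least 2-fold higher at E18 and Nr4a2 (9.09%, against 0.502%) lower. Steps above 0 were found in 9 of 11 (81.8%, against 53.2% of all genes). Ctgf, a matricellular growth factor, was 0.485, 0.743, 4.38 and 30.9 FPKM from E15 to P1, while callosal and subcerebral neurons stayed at or below 0.683 and 0.223 FPKM. Cplx3, a complexin of subplate neurons below the threshold of comparison, was 0.383 FPKM at E18 and 0.0234 FPKM at E16, and 7.58 FPKM at P1. Trh, the thyrotropin-releasing hormone precursor, was 3.30 FPKM at E18 and 1.03 FPKM at E16. Whether these values come from corticothalamic neurons or from subplate cells in the sort was not tested.

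**Figure D3:**
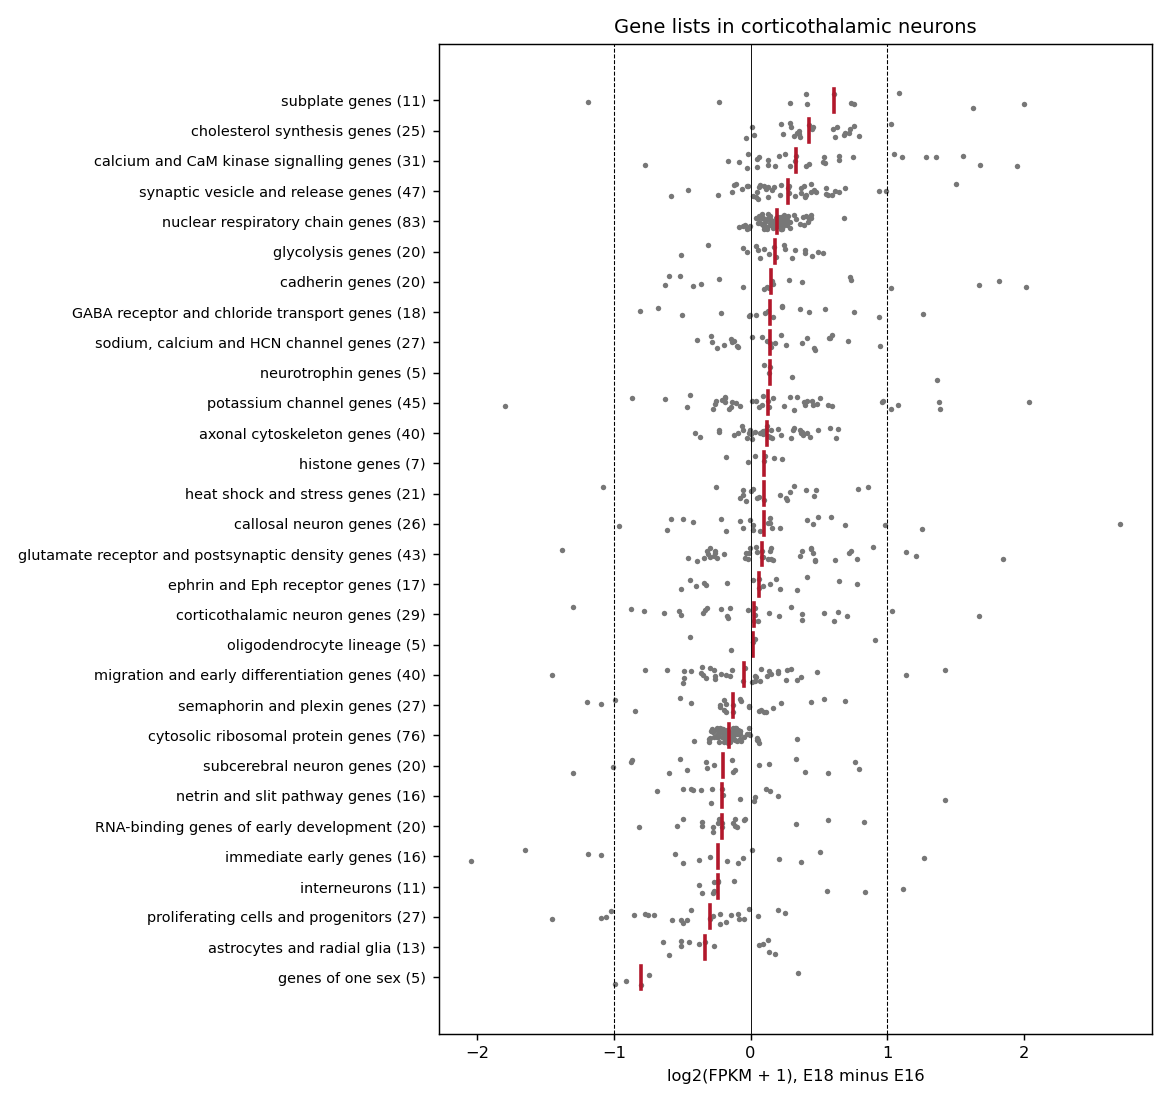
Step (horizontal axis, log2(FPKM + 1), E18 minus E16) of every compared member (grey points) of each gene list with at least 5 members compared, in corticothalamic neurons, with the number compared in parentheses and the list median as a red bar; dashed lines mark 2-fold. Subplate genes (0.61), cholesterol synthesis genes (0.43) and calcium signalling genes (0.33) have the highest medians in the values plotted, and ribosomal protein genes (-0.16) form a narrow band below 0.

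Genes for calcium and CaM kinase signalling were among those with the largest steps upward. Of 31 compared, 7 (22.6%, against 1.3% of all genes) were at least 2-fold higher and 0 lower. Steps above 0 were found in 26 (83.9%, against 53.2% of all genes), with a median of 0.33. Besides Vsnl1 and Ncald, the calcium sensor hippocalcin (Hpca) was 46.1 FPKM at E18 and 17.4 FPKM at E16. Prkcb, a protein kinase C, was 19.96 and 7.61 FPKM, Camk2a, a subunit of CaM kinase II, 13.7 and 5.83 FPKM, and Nrgn, the calmodulin-binding protein neurogranin, 41.6 and 19.5 FPKM. Ryr2, a calcium release channel of the endoplasmic reticulum, was 2.80 and 0.293 FPKM. Prkca was the lowest member, with 1.93 FPKM at E18 and 4.01 FPKM at E16. The list median was 0.32 in callosal and 0.33 in subcerebral neurons.

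Steps of synaptic genes were smaller. Of 47 synaptic vesicle and release genes, 38 (80.9%, against 53.2% of all genes) had steps above 0 with a median of 0.28. Yet 1 (2.13%, against 1.3% of all genes) was at least 2-fold higher. The vesicle protein gene Sv2b was 27.1 and 13.1 FPKM and the calcium sensor of release Syt1 49.2 and 25.1 FPKM, just under 2-fold. Snap25, a SNARE protein, was 146 and 161 FPKM. The median P1 minus E15 difference over the list was 1.01 in corticothalamic neurons.

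Glutamate receptor and postsynaptic density genes had steps of both signs. Of 43 compared, 3 (6.98%, against 1.3% of all genes) were at least 2-fold higher and 1 (2.33%, against 0.502%) lower. Steps above 0 were found in 25 (58.1%, against 53.2% of all genes), with a median of 0.09. Grm4, a metabotropic receptor, was 6.88 FPKM at E18 and 1.19 FPKM at E16, a step of 1.84. Neto1, an auxiliary subunit of kainate receptors, was 6.65 and 2.30 FPKM, and the kainate receptor subunit Grik4 11.1 and 4.49 FPKM. Gria1, an AMPA receptor subunit, was the lower gene, with 5.35 FPKM at E18 and 15.5 FPKM at E16, a step of -1.38 beside 0.18 and 0.13. Of 18 genes for GABA receptors and chloride transport 1 (5.56%, against 1.3% of all genes) was at least 2-fold higher, Slc12a5, the chloride extruder KCC2, with 19.4 and 7.51 FPKM. Its counterpart Slc12a2, the chloride importer NKCC1, was 7.43 and 8.78 FPKM.

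Of 45 potassium channel genes 5 (11.1%, against 1.3% of all genes) were at least 2-fold higher and 1, Kcnip1, lower (2.22%, against 0.502%). Their median was 0.13. Kcnc4, a Kv3 channel, was 6.99 FPKM at E18 and 2.06 FPKM at E16. The inward rectifier genes Kcnj4 and Kcnj9 were 3.64 and 4.41 FPKM at E18 against 0.783 and 1.56 FPKM at E16, and Kcnf1, a modulatory subunit, 2.46 against 0.698 FPKM. Kcnk9 was the fifth. None of 27 sodium, calcium and HCN channel genes was 2-fold apart, against 1.3% of all genes higher and 0.502% lower. The largest step was that of the T-type calcium channel Cacna1g, 68.5 FPKM at E18 and 35.0 FPKM at E16.

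Of 20 cadherin genes 4 (20%, against 1.3% of all genes) were at least 2-fold higher, Cdh9, Cdh18, Pcdh10 and Pcdh15, and 0 lower. Pcdh15 was 4.55 FPKM at E18 and 0.574 FPKM at E16, and Pcdh10, a protocadherin needed by axons in the forebrain, 12.9 and 5.81 FPKM. Of 27 semaphorin and plexin genes 2 (7.41%, against 0.502% of all genes) were lower and 0 higher. Plxnd1, a receptor for Sema3E, was 2.23 FPKM at E18 and 6.42 FPKM at E16, whereas callosal neurons had 16.2 and 2.68 FPKM. Nrp2, a co-receptor for class 3 semaphorins, was 0.227 and 1.62 FPKM. No ephrin or Eph receptor gene of 17 and no axonal cytoskeleton gene of 40 was 2-fold apart. Over all genes 1.3% were higher and 0.502% lower, so lists of this size can hold none. Gap43, a growth cone protein, had the largest step of the cytoskeletal list, with 327 FPKM at E18 and 209 FPKM at E16.

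Immediate early genes, which neuronal activity and dissociation can both induce, had steps in both directions. Of 16 compared, 4 (25%, against 0.502% of all genes) were at least 2-fold lower at E18 and 1 (6.25%, against 1.3%) higher. Fosl2, the orphan nuclear receptor genes Nr4a3 and Nr4a2, and Ier5 were lower. Nr4a3 was 14.2 FPKM at E18 and 46.7 FPKM at E16, Nr4a2 7.20 and 17.7 FPKM, and Ier5 31.5 and 68.7 FPKM. Npas4, an activity-dependent transcription factor, was the higher gene, with 3.12 and 0.704 FPKM. The sign for Nr4a2 differed between the other subtypes, with steps of 1.28 in callosal and -2.16 in subcerebral neurons.

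Of the 27 progenitor genes compared, 4 (14.8%, against 0.502% of all genes) were at least 2-fold lower and 0 higher. The other 23 were less than 2-fold apart, and the median was -0.30. Eomes, the T-box factor of intermediate progenitors, was 0.646 FPKM at E18 and 3.51 FPKM at E16, Neurog2 0.642 and 2.42 FPKM, Pax6, the radial glial transcription factor, 0.606 and 2.26 FPKM, and Vim, the intermediate filament vimentin, 7.58 and 17.3 FPKM. Pcna, the sliding clamp of DNA replication, was 37.6 FPKM at E18 and 32.6 FPKM at E16. Migration and early differentiation genes had a median of -0.05, and Sox4, an early neuronal transcription factor, was 158 and 270 FPKM.

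Metabolic lists had small but even steps. Of 25 cholesterol synthesis genes 24 had steps above 0, against 53.2% of all genes compared, with a median of 0.43 beside 0.25 in callosal and 0.12 in subcerebral neurons. Fdps was 110 FPKM at E18 and 63.1 FPKM at E16, and Idi1, also an enzyme of isoprenoid synthesis, 26.7 and 15.4 FPKM. Hmgcs1, the synthase at the head of the pathway, was the 1 gene at least 2-fold higher, at low values of 2.49 and 0.713 FPKM, with steps of -0.96 and -0.58 in callosal and subcerebral neurons. Nuclear genes of the respiratory chain had a median of 0.19, with 77 of 83 (92.8%, against 53.2%) above 0, beside medians of 0.02 in callosal and 0.20 in subcerebral neurons. The largest was Cox7b, a subunit of cytochrome c oxidase, with 44.7 and 27.4 FPKM. Glycolysis genes had 16 of 20 (80%, against 53.2%) above 0 and a median of 0.18.

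Steps of ribosomal protein genes had the other sign. Of 76 cytosolic ones 71 had steps below 0, against 46.8% of all genes compared. Their median was -0.16, beside -0.16 in callosal and -0.14 in subcerebral neurons. None was 2-fold apart, against 1.3% of all genes higher and 0.502% lower. Of 20 RNA-binding genes of early development 17 (85%, against 46.8%) had steps below 0, with a median of -0.21. Igf2bp3, an mRNA-binding protein, was 3.98 FPKM at E18 and 7.75 FPKM at E16, and Rbfox3, which encodes the neuronal splicing factor NeuN, 35.7 and 23.7 FPKM. These directions were the same after median-ratio scaling and after quantile normalization, which left 71 of 76 ribosomal protein genes below 0 in both and 77 of 83 and 76 of 82 respiratory chain genes above 0.

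The remaining lists held few large steps. Of 11 interneuron genes compared 1 (9.09%, against 1.3% of all genes) was at least 2-fold higher, the neuropeptide gene Npy, and 8 had steps below 0. Npy was 517 FPKM at E18 and 238 FPKM at E16 in the corticothalamic columns, with steps of 0.96 and 1.64 in the callosal and subcerebral ones. It made up most of that list's summed FPKM, 551 at E18 and 273 at E16. Whether Npy came from projection neurons or from interneurons in the sort was not tested. Dlx1 and Gad1 were 4.64 and 1.71 FPKM at E18 and 6.32 and 2.19 FPKM at E16. Of 21 heat shock and stress genes 1 (4.76%, against 0.502% of all genes) was lower, Gadd45g, with 5.19 and 12.1 FPKM. Histone genes had a median of 0.10 over 7, and the 1 mitochondrially encoded gene in the table, mt-Nd4, a step of -0.19.

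The same step in the other subtypes shows which differences were shared. Over the 13142 genes, at least 2-fold higher were 245 (1.86%) in callosal and 273 (2.08%) in subcerebral neurons, and at least 2-fold lower 61 (0.464%) and 73 (0.555%). Across these genes the corticothalamic step had a Pearson r of 0.53 with the callosal and 0.59 with the subcerebral step, and the callosal and subcerebral steps 0.64 with each other. Genes are not independent replicates, and the columns of a stage share any difference in collection.

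Of the 171 genes higher in corticothalamic neurons, 44 were at least 2-fold higher in all 3 subtypes, 32 with subcerebral neurons but not callosal, 21 with callosal but not subcerebral and 74 in neither. The 44 include Sulf2, Vsnl1, Slc12a5, Nrgn, Prkcb, Ryr2, Kcnj4, Kcnj9, Osbpl1a, Negr1 and Cdk5r2, an activator of the kinase Cdk5. Among the 171 the median step was 1.27 in corticothalamic, 0.81 in callosal and 0.88 in subcerebral neurons, and 150 and 159 of them had the same sign in the others. The first of these medians follows from how the genes were chosen. Over all genes compared the median step was -0.007 in callosal and -0.010 in subcerebral neurons, and the share with the same sign was not counted.

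Of the 66 lower genes 8 were at least 2-fold lower in all 3 subtypes, 14 with subcerebral but not callosal neurons, 6 with callosal but not subcerebral and 38 in neither. Cwc22, a splicing factor, was the most abundant of the 8, with 51.8 FPKM at E18 and 151 FPKM at E16 in corticothalamic neurons and steps of -1.53, -1.41 and -1.58 in corticothalamic, callosal and subcerebral neurons. The copy number of Cwc22 is known to vary between mouse strains, and reads of its copies cannot be separated here. Others of the 8 were Dusp4, a phosphatase of MAP kinases, Rspo3, which amplifies Wnt signals, the heparan sulfate proteoglycan gene Gpc4 and Ier5. Dusp4 was 2.27 FPKM at E18 and 9.40 FPKM at E16, Rspo3 4.25 and 12.1 FPKM, and Gpc4 9.28 and 20.8 FPKM. The median step of the 66 was -1.31 in corticothalamic, -0.16 in callosal and -0.51 in subcerebral neurons, and 39 and 53 had the same sign in the others. With medians of -0.007 in callosal and -0.010 in subcerebral neurons over all genes, steps below 0 were common in general. Their share over all genes in these subtypes was not counted.

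**Figure D4:**
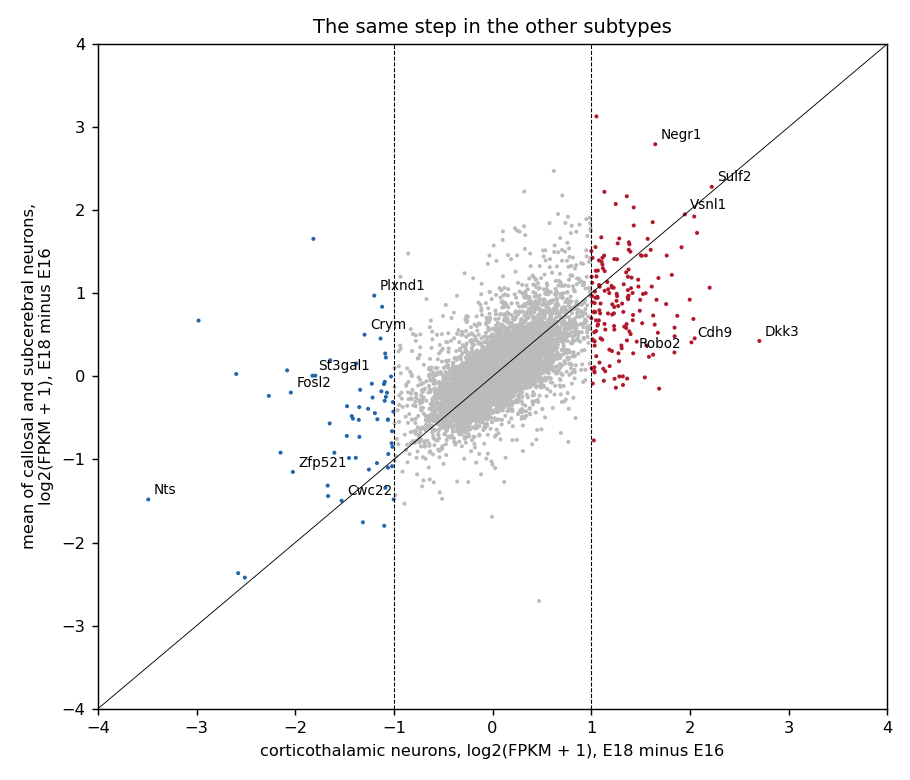
Step of each gene in corticothalamic neurons (horizontal axis) against the mean step of callosal and subcerebral neurons (vertical axis), both as log2(FPKM + 1) at E18 minus E16; red and blue mark genes at least 2-fold higher or lower in corticothalamic neurons, the diagonal equal steps, and 5 genes beyond 4 in size are not drawn. Sulf2 and Vsnl1 lie near the diagonal, Dkk3 and Cdh9 to the right of it, and Crym and Plxnd1 to its left, above 0 on the vertical axis.

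With a step of at least 1 in corticothalamic neurons and under 0.5 in size in both others, there were 22 higher and 17 lower genes. The higher ones include Ctgf, Trh, Etv1, Klf5, Tmem132d and Usp43. Genes entered by their corticothalamic values alone, so a gene near 0 in the other subtypes, such as Ctgf, falls under 0.5 there through the pseudocount. Small steps were also the rule, with 90.5% of genes under 0.5 in corticothalamic neurons. The share of all genes under 0.5 in both others was not counted, so these counts do not show changes particular to corticothalamic neurons. Etv1, an ETS transcription factor of layer 5 neurons, was 0.173, 1.41, 6.02 and 7.79 FPKM from E15 to P1 in corticothalamic neurons, whereas subcerebral neurons had 14.8 FPKM at E18 and already 13.9 FPKM at E16. The lower ones include St3gal1, Kcnip1, Cntnap2, Gria1, Kirrel3, Vim and Nrp2. Kirrel3, an adhesion molecule of the immunoglobulin superfamily, was 8.80 FPKM at E18 and 23.8 FPKM at E16 in corticothalamic neurons, 29.6 and 27.7 FPKM in callosal and 45.4 and 60.8 FPKM in subcerebral neurons. Steps of the opposite sign of at least 0.5 in another subtype occurred for 4 of the higher and 11 of the lower genes, among them Crym, Fosl2, Nr4a2, Plxnd1, Gadd45g and Hmgcs1. The share of all genes with such opposite steps was not counted, so these counts do not show a divergence between subtypes.

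The difference itself, the corticothalamic step minus the mean of the other steps, was tested with limma over all 12 values. The error of this test comes from what callosal and subcerebral neurons did not share over the stages, with 3 residual degrees of freedom before moderation, and not from libraries. With Benjamini-Hochberg adjustment over 13142 genes, 1 gene (0.00761%) passed the threshold of 0.05, and 210 genes (1.60%) had an unadjusted p under 0.05. The passing entry was Mir199b, with 78.6 FPKM in corticothalamic neurons at E16 and listed at 0 in the other 11 columns. That entry was compared only because of this value, and the callosal and subcerebral columns that set the error are all 0, so its p follows from the construction and shows no difference between subtypes. An FPKM of so short an entry in a poly(A)-selected library can rest on few reads. The next lowest adjusted p was 0.75. No gene was therefore shown to differ in its step from the other subtypes.

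The difference was also sized for genes that did not pass. It was 2.28 ± 0.83 for Dkk3, 1.61 ± 0.39 for Cdh9 and 1.37 ± 0.22 for Ctgf (SE of the limma fit). No SE here measures the spread between libraries. For Cdh9 and Ctgf it rests on low callosal and subcerebral values, which the pseudocount compresses, so it is no measure of precision. In the other direction the difference was -1.84 ± 0.41 for Cntnap2, -1.81 ± 0.34 for Kcnip1, -1.83 ± 0.65 for St3gal1 and -1.54 ± 0.40 for Gria1. For Nrgn it was -2.08 ± 0.23: the corticothalamic step of 1.05 stood beside 2.89 in callosal and 3.36 in subcerebral neurons. The corticothalamic value of Nrgn was the lowest of the 3 at E18, at 41.6 FPKM against 47.4 FPKM in callosal and 87.0 FPKM in subcerebral neurons, and the highest at E16, at 19.5 FPKM against 5.51 and 7.55 FPKM. The limma adjusted p of every gene in these sentences was at least 0.75.

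E15 and P1 share no column with the step and show whether a difference was also present between the outer stages. A change confined to E16 to E18 that persisted would appear there too, so a longer course is not shown by it. Over all genes compared, 1136 (8.64%) were at least 2-fold higher and 887 (6.75%) at least 2-fold lower at P1 than at E15 in corticothalamic neurons. Of the 171 genes higher at E18, 145 (84.8%) were at least 2-fold higher at P1 than at E15, and 3 were at least 2-fold lower. For 118 of the 171 the value was also higher at E16 than at E15 and at P1 than at E18, as for 25.1% of all genes compared; these neighbouring differences share a column with the step. Across all genes compared, the E16 to E18 step and the P1 minus E15 difference had a Pearson r of 0.69.

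Of the lower genes 42 of 66 (63.6%) were at least 2-fold lower at P1 than at E15, and 26 of 66 were also lower at E16 than at E15 and at P1 than at E18, as for 28.1% of all genes compared. The shares of higher and lower genes were not tested against each other. Zfp521 and St3gal1 were lower at each later stage, and so was Odz4, a teneurin, with 30.9, 21.5, 6.39 and 2.77 FPKM from E15 to P1, for which a second entry may share reads. Plagl1, an imprinted zinc finger gene, was 37.3, 25.6, 9.16 and 7.68 FPKM. Nts, Crym and Npr3 had their highest corticothalamic value at E16, and Crym was 1 of 2 lower genes at least 2-fold higher at P1 than at E15. In Npr3 the values were 8.71, 22.7, 10.8 and 6.33 FPKM.

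**Figure D5:**
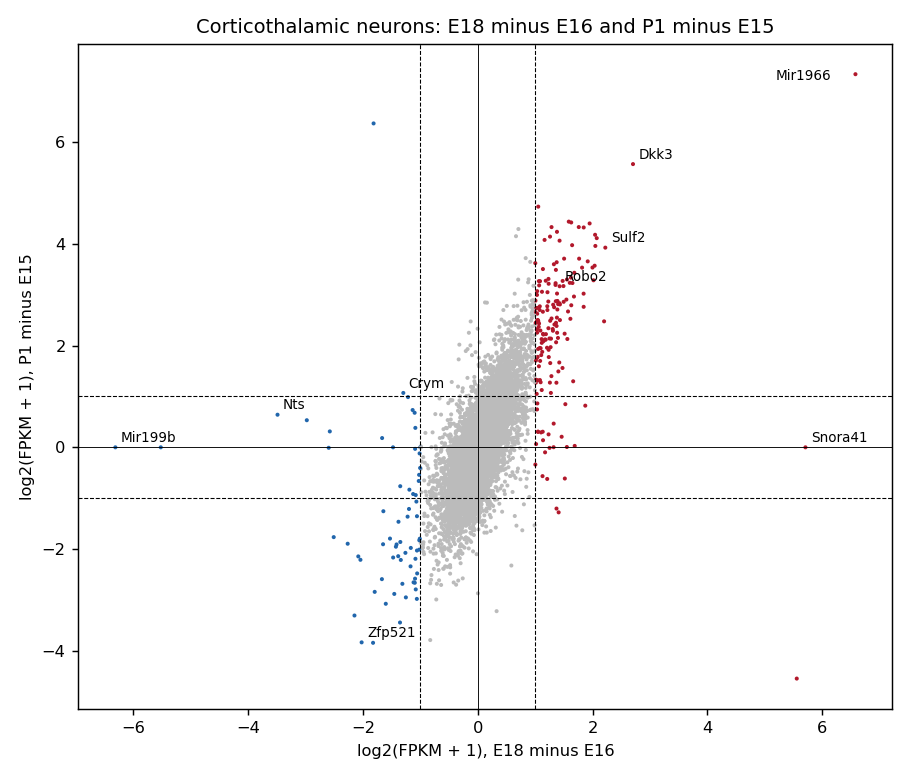
Step of each gene in corticothalamic neurons (horizontal axis, log2(FPKM + 1), E18 minus E16) against the difference between the outer stages (vertical axis, log2(FPKM + 1), P1 minus E15), with dashed lines at 2-fold; red and blue mark genes at least 2-fold higher or lower at E18. Of the red genes 145 of 171 lie above the upper line, and of the blue genes 42 of 66 lie below the lower one, with Nts and Crym above 0.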

How the data were processed

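The submitters' processing notes name TopHat2, Cufflinks and build mm9; their versions, the annotation, the use of strand and the way of pooling libraries are not given in these sources. Per the labels' protocols, RNA integrity numbers lay between 6.3 and 9 and poly(A) RNA was selected. The deposited table has 12 value columns and no unit in its header; its values were read as FPKM, which the authors' use of Cufflinks, values far below 1 and unequal column sums point to. FPKM keep no counts, so depth is unknown and no counting interval can be given, and exact zeros are described as "listed at 0". Columns were matched to groups by their names.

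Steps were computed as log2(FPKM + 1) with a pseudocount of 1 over genes with at least 1 FPKM in either corticothalamic column, and called at 2-fold. Pooled values leave no test of a step. The difference between subtypes was tested with limma-trend (R 4.3.3, with limma 3.58.1 and statmod 1.5.0) with a variance trend and robust moderation, additive terms for stage and subtype, free stage terms for corticothalamic neurons and Benjamini-Hochberg adjustment at 0.05; its code was checked on simulated data. Tables were handled in Python 3.11.15 with pandas 2.3.3 and numpy 2.4.6. Alternatives were other pseudocounts (0.1 and 5), other filters, median-ratio scaling, quantile normalization, fewer entries and fits without E15 or P1.

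Of the 35 gene lists, 17 members were matched through older symbols of the RefSeq gene table of GRCm38.p6. A list is described by counts and its median, since its members were not tested as a set. The members compared and the lists were chosen with earlier results of these data known. Genes were named by rule: the 12 with the largest step in each direction among symbols with at least 5 FPKM, those passing the difference test, Tle4 and Tbr1, and list members at least 2-fold apart with the extreme members of lists. A further 16 protein-coding genes in each direction were ranked, the largest untested differences looked up and the genes of the shared classes picked after values were seen. In the first 12, short noncoding RNAs and entries named only by a cDNA identifier are not described singly, and a few genes the rule names are not reported here. Promoters came from the RefSeq table of GRCm38.p6, while the files use mm9, so no coordinate of the files was used.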

Additional observations from a re-analysis of the deposited data

Results flagged for a closer look

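The Mir199b entry was picked out by the limma test of the corticothalamic step against the mean step of callosal and subcerebral neurons, with a difference of -6.31. It was 78.6 FPKM in corticothalamic neurons at E16 and listed at 0 in the other 11 columns, so a single pooled value carries the result. The residual of the fit, taken from callosal and subcerebral columns that are all 0, is then 0 by construction, and the test is void for this entry. Other short noncoding RNA entries also appeared in some columns and were listed at 0 in others: Snora41 was 51.3 FPKM at E18 and listed at 0 at E16 in corticothalamic neurons, against 0 at E18 and 44.4 FPKM at E16 in callosal neurons. Snora44 was 46.1 FPKM at E18, listed at 0 at E16 and 22.4 FPKM at E15.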

How the results depend on the processing

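With a pseudocount of 0.1 there were 374 higher and 144 lower genes, of which 151 and 26 in all 3 subtypes and 316 and 101 with the same 2-fold direction at P1 against E15; with a pseudocount of 5 these counts were 40, 24, 8, 3, 33 and 14. Genes under 0.5 in both other subtypes were then 7 higher and 8 lower. Keeping genes with at least 5 FPKM left 109 higher, 27 of them in all 3 subtypes, 95 higher at P1 and, under 0.5 in both others, 9 higher and 11 lower. The limma test passed 0 genes with a pseudocount of 0.1 (173 at an unadjusted p under 0.05), 0 with the filter at 5 FPKM (116), and 2 with no filter (Mir199b and Snord22) and without P1 (Mir199b and Mir1966). Of the alternatives added after seeing the data, leaving out short noncoding RNAs passed 0 genes (206 unadjusted), as did requiring 1 FPKM in 2 of 12 columns (221). Of 35 list medians 6 changed sign in some setting: vascular cells to -0.011 with no filter; interneurons to 0.56, oligodendrocyte lineage to -0.060 and migration genes to 0.0082 at 5 FPKM; oligodendrocyte lineage to -0.029 and corticothalamic genes to -0.015 after quantile normalization. Cajal-Retzius cells, with 2 genes compared in the main setting, lay between 0.014 and 0.30 in 4 settings, against -0.097. Other filters changed which members of a list were counted. Of 77 single genes 2-fold apart, 36 were below 2-fold with a pseudocount of 5 and 2 after quantile normalization, and none changed sign in any alternative run. Share of higher genes among those 2-fold apart was 72.2%, 62.5% with a pseudocount of 5 and 67.9% after quantile normalization. No paired analysis was possible because the table has 1 pooled value per group, and for the same reason no library could be left out. Unknown depth leaves every step without an error.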
